A study of Mus musculus with 24 samples.

Results

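Txnip, 4 further arrestin-domain genes (Arrdc1, Arrdc2, Arrdc3 and Arrdc4) and the transcription factor genes Mlx and Mlxip were followed through 24 RNA-seq libraries of mouse primary cortical neurons. The 7 genes are 7 of 55177 in the annotation used, and all 7 passed the low-count filter on both culture days. They were chosen by name, with the much lower Txnip level under KCl on day 7 in vitro (DIV7) already known, so their DIV7 values are given as a description with no test. For each gene the estimated counts of its annotated transcripts were summed in each library.

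Txnip, the thioredoxin-interacting protein, is an alpha-arrestin that binds reduced thioredoxin and promotes removal of glucose transporters from the cell surface. The Arrdc proteins share its arrestin fold and act as adaptors that bring Nedd4-family ubiquitin ligases to membrane cargo. Mlxip encodes MondoA, a glucose-responsive basic helix-loop-helix factor that binds DNA together with its partner Mlx at carbohydrate response elements, and Txnip and Arrdc4 are the best known targets of that pair.

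Cortical cells were taken from mouse embryos at embryonic day 16.5, and per the labels' protocols the cortex of each embryo counted as a biological replicate. All cultures were silenced overnight with 1 µM tetrodotoxin and 100 µM D-AP5, and stimulated cultures then received 50 mM KCl for 30 min, which depolarizes neurons. The DIV7 cultures were wild type, were exposed to 0.1% DMSO in both states and gave poly(A) libraries, 2 at rest and 2 with KCl. The DIV18 cultures gave rRNA-depleted total RNA and carried either a non-targeting guide RNA (NT; 2 at rest, 2 with KCl) or a guide against Smarcc2, a core subunit of the BAF chromatin remodelling complex. The Smarcc2 knockout cultures received an empty vector (KO+vector; 3 at rest, 3 with KCl), wild-type Smarcc2 (KO+WT; 2 at rest, 3 with KCl), the S586E substitution (KO+S586E; 3, at rest only) or the S586A substitution (KO+S586A; 2, with KCl only). No vector is named in the labels for NT. Culture day, RNA selection and DMSO change together between DIV7 and DIV18 and cannot be told apart.

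Library totals were 14510199 to 30135576 estimated counts. Smarcc2 fell in KO+vector against NT at rest by 2.23 on the log2 scale (edgeR quasi-likelihood test, adjusted p = 7.34e-08), with a mean of 251 CPM (counts scaled by library total and TMM factor to a common unit) in NT, 53.6 in KO+vector, 786 in KO+WT and 1225 in KO+S586E at rest. Fos, an early response gene, rose with KCl by 7.23 on the log2 scale at DIV7 (edgeR adjusted p = 4.35e-08), by 3.8 in KO+vector (0.00329) and by 4.52 in KO+WT (0.00567), and had 3.36 in NT at DIV18, which did not pass (0.0912). Summed neuron markers exceeded those of every other cell class in each library, and astrocyte, oligodendrocyte-lineage, microglial and dividing-cell markers were present too. In such mixed bulk cultures, fewer cells of a type and less RNA per cell cannot be told apart.

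The stretch before the start of Txnip is shown because this gene had the largest KCl difference of the 7, and that of Arrdc4 because it is the other well known Mlxip target. Both are the 250 bases before the RefSeq transcription start, 5′ to 3′ on the gene's strand (GRCm38.p6; Txnip chr3:96557707-96557956, plus strand; Arrdc4 chr7:68749239-68749488, minus strand).
Txnip: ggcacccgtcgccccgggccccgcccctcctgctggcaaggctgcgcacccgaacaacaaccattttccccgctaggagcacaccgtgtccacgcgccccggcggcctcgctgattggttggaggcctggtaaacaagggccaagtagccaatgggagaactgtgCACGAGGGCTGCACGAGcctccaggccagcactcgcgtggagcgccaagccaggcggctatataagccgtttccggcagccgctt
Arrdc4: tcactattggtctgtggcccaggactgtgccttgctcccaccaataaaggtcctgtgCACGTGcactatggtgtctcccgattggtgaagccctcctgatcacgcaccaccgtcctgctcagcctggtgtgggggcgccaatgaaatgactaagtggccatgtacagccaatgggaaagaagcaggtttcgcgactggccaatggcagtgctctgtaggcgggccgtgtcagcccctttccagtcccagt
The capitals in Txnip mark the pair of boxes of the carbohydrate response element type, searched on both strands as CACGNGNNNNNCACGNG. They lie 85 to 69 bases before the start and occur in 15 of 32851 windows of the same length (0.0457%), with Txnip the only one of the 7 genes. The capitals in Arrdc4 mark the palindromic E-box CACGTG, 193 to 188 bases before the start, which 6.02% of all windows held and which the window of Mlx also held. A CCAAT box (CCAAT, either strand; 33.8% of windows) stood in windows of 6 of the 7 genes, all but Arrdc1, and the forkhead letters GTAAACA (3.17% of windows) in Txnip alone. The letters TGACG (17.8%) occurred in windows of Arrdc3 and Mlxip, and TATAAA (12.4%) in none of the 9 windows of the 7 genes. A match is a description of the letters and shows no binding.

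At DIV7, Txnip was far lower 30 min after KCl. Its estimated counts were 1437 and 1148 at rest and 72 and 51 with KCl, which corresponds to 50.4 and 46.2 CPM against 2.43 and 1.86 CPM. Both KCl libraries lay far below both resting ones. The log2 fold change was -4.49 (SE 0.13), a 22.4-fold lower level, and ranked 12 from the lowest of 19822 genes. On the length-scaled TPM scale (transcripts in a library scaled to a fixed total), Txnip measured 38.4 and 32.7 at rest and 1.61 and 1.47 with KCl. The longer of its 2 main transcripts had 20.5 and 13.8 TPM at rest and 0.633 and 0.342 TPM with KCl. The shorter one had 12.8 and 17.1 TPM and 0.978 and 0.831 TPM, so both were lower. The longer one starts 3 bases earlier, has 3 more bases in exon 2 and ends 26 bases later, and the split between them is an estimate. Summed astrocyte markers (6 genes) were at 517 to 584 CPM at rest and 489 to 499 CPM with KCl. By edgeR 2 of 6 were lower, where 17.0% of all genes passed, and DESeq2 called 0. Neuron sums (5 genes) were at 3623 to 3637 and 3598 to 3609 CPM, with 1 gene higher and 1 lower by edgeR. Vessel and fibroblast sums (6 genes) were at 6.81 to 7.37 and 7.69 to 8.15 CPM. Oligodendrocyte-lineage, microglial and dividing-cell sums overlapped. The part of these cells in the Txnip difference was not tested.

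**Figure D1:**
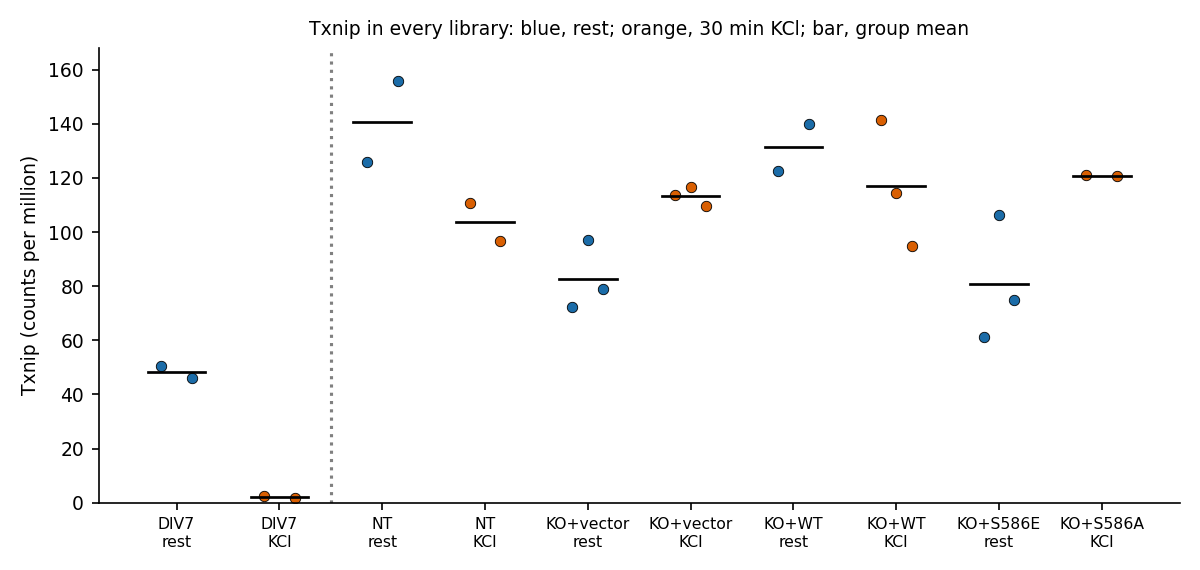
Txnip in CPM (vertical axis) in each of the 24 libraries, by group (horizontal axis), with blue points at rest, orange points after 30 min of KCl and bars at group means. The DIV7 KCl libraries lie at 2.43 and 1.86, whereas the DIV18 KCl libraries lie between 95 and 141.

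Arrdc3, which in other systems binds beta-adrenergic receptors and integrins, had the next largest DIV7 difference of the 7. It measured 84.8 and 102 CPM at rest and 27.8 and 25.7 CPM with KCl, with no overlap. The log2 fold change was -1.80 (SE 0.10), and 1.02% of genes had a lower one. Arrdc4 measured 82.1 to 89.9 CPM at rest and 59.8 to 64.9 CPM with KCl, a log2 fold change of -0.46 (SE 0.07). Arrdc2 had a log2 fold change of -0.44 (SE 0.10) and Arrdc1, which is known for budding of microvesicles at the plasma membrane, one of -0.28 (SE 0.09). Mlxip measured -0.16 (SE 0.07) and its partner Mlx -0.13 (SE 0.09), with the Mlx libraries of both states overlapping. So 6 of the 7 genes, Txnip among them, had KCl libraries that were all below the resting ones. Of all 19822 genes, 6079 were all below and 5642 all above, 59.1% together. The median log2 fold change of the 7 was -0.44, and that of all genes -0.0014.

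By length-scaled level, the order at rest on DIV7 was Mlx with 69.7 ± 6.90 TPM (SD, n = 2), Arrdc3 with 54.6 ± 11.3 TPM, Arrdc4 with 48.1 ± 3.88 TPM, Txnip with 35.5 ± 4.00 TPM, Arrdc1 with 32.4 ± 2.50 TPM, Arrdc2 with 24.1 ± 0.593 TPM and Mlxip with 16.1 ± 1.42 TPM. The ranges of Arrdc3 and Arrdc4 overlapped, as did those of Txnip and Arrdc1. In NT at rest on DIV18 Txnip came first with 48.7 ± 7.21 TPM (n = 2), followed by Arrdc3 with 29.2 ± 0.405 TPM, Arrdc4 with 16.7 ± 2.36 TPM, Mlx with 8.82 ± 0.322 TPM, Arrdc2 with 7.47 ± 0.660 TPM, Arrdc1 with 6.92 ± 0.355 TPM and Mlxip with 3.89 ± 0.0772 TPM. Only Arrdc2 and Arrdc1 overlapped among those neighbours. TPM of the 2 days come from different RNA selections and are not compared.

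At DIV18 the KCl difference of Txnip was small, and its sign was not the same in the 3 constructs. In NT it measured 126 and 156 CPM at rest and 111 and 96.7 CPM with KCl, so both KCl libraries were lower. The log2 fold change was -0.44 (SE 0.20; 95% confidence interval -0.86 to -0.02; edgeR quasi-likelihood test, adjusted p = 1.00). Without NT rest replicate 2 the NT value was -0.28. In KO+vector the resting libraries measured 72.2, 97.0 and 79.1 CPM and the KCl libraries 114, 117 and 110 CPM, so all 3 KCl libraries were higher. The log2 fold change was 0.45 (SE 0.16; edgeR adjusted p = 0.356). Marker sums separated the same libraries: at rest and with KCl, astrocyte sums were at 899 to 1249 and 738 to 866 CPM, neuron sums at 2591 to 3005 and 2429 to 2553 CPM, oligodendrocyte-lineage sums at 133 to 151 and 112 to 132 CPM, and microglial sums at 3.8 to 3.82 and 5.07 to 6.05 CPM. Their part in the Txnip difference was not tested. In KO+WT the values were 123 and 140 CPM at rest and 141, 114 and 95 CPM with KCl, and the states overlapped. There the log2 fold change was -0.17 (SE 0.18; edgeR adjusted p = 0.981). The mean response, the average of the 3 log2 fold changes, was -0.05 (95% confidence interval -0.27 to 0.17). The DIV7 and DIV18 responses come from separate fits, and their difference was not tested.

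None of the 7 genes passed the edgeR threshold of 0.05 for a KCl response at DIV18. The count was 0 of 7 in NT, where 0.00955% of 20940 genes passed, with 1 of 7 at an unadjusted p under 0.05. It was 0 of 7 in KO+vector (0.0716% of genes; 4 unadjusted), 0 of 7 in KO+WT (0.0430%; 1 unadjusted) and 0 of 7 for the mean response (0.449%; 1 unadjusted). In the same order, 906, 2167, 1040 and 1664 of all 20940 genes had an unadjusted p under 0.05. DESeq2 also called 0 of 7 in each of these 4 comparisons. Arrdc1 and Arrdc2 had the same sign as Txnip in KO+vector, with log2 fold changes of 0.58 (SE 0.18) and 0.59 (SE 0.17) and all KCl libraries above all resting ones. With length offsets the Arrdc2 value was 0.22. Libraries of the 2 states did not overlap for 4 of 7 genes in KO+vector (15.7% of all genes), 3 of 7 in NT (33.4%) and 0 of 7 in KO+WT (21.7%).

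**Figure D2:**
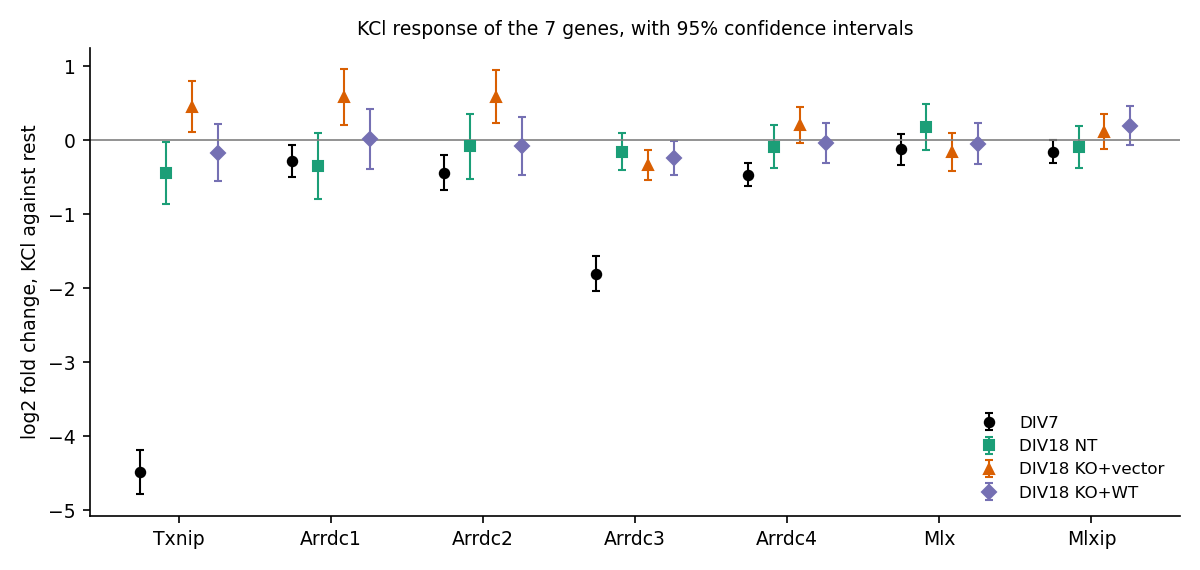
Log2 fold change of KCl against rest (vertical axis) with its 95% confidence interval for each of the 7 genes (horizontal axis), at DIV7 and in the 3 DIV18 constructs measured in both states. Txnip and Arrdc3 stand at -4.49 and -1.80 at DIV7, while the DIV18 values of all 7 genes lie between -0.44 and 0.59.

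The differences between those DIV18 responses did not pass either. The response of KO+vector minus that of NT was 0.89 for Txnip (SE 0.26; edgeR adjusted p = 0.472), 0.93 for Arrdc1 (SE 0.28; adjusted p = 0.472) and 0.67 for Arrdc2 (SE 0.27; adjusted p = 0.504). The response of KO+WT minus that of KO+vector was -0.62 for Txnip (SE 0.24), -0.57 for Arrdc1 (SE 0.26) and -0.67 for Arrdc2 (SE 0.25), each with an edgeR adjusted p of 1.00. With length offsets the Arrdc2 values were 0.11 and -0.44, and without NT KCl replicate 2 and KO+WT rest replicate 2 they were 0.43 and -0.26. With protein-coding transcripts alone the Arrdc1 values were 1.44 and -0.90. By edgeR 0 of 7 genes and 0% of all genes passed in both comparisons, with 3 of 7 at an unadjusted p under 0.05 in each, and DESeq2 called 0 of 7. Over all genes, 1845 and 768 had an unadjusted p under 0.05, and DESeq2 called 9 and 1. These comparisons share the KO+vector libraries and are not independent.

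Arrdc3 was lower with KCl in the fit of all 3 constructs, by 0.15 in NT, 0.34 in KO+vector and 0.24 in KO+WT on the log2 scale. Its mean response was -0.24 (SE 0.06; 95% confidence interval -0.38 to -0.11; edgeR adjusted p = 0.141), which did not pass. With the replicate number as a block the edgeR adjusted p was 0.0432, with length offsets 0.0426 and without KO+WT KCl replicate 3 it was 0.0351. These were among the 5 of 24 alternatives that passed, and the others did not. Over the 24 the value ran from -0.33 to -0.19. Arrdc4, Mlx and Mlxip had mean responses of 0.03, -0.01 and 0.07, with SE of 0.07, 0.08 and 0.07.

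The transcripts of Arrdc3 differed in their KCl values. GENCODE M21 places the gene at chr13:80883384-80896042 on the plus strand (GRCm38). Its main coding transcript and a transcript that the annotation assigns to nonsense-mediated decay (the decay transcript) share the end of exon 6 at position 80891224. Exon 7 starts at 80891488 in the coding transcript and at 80891450 in the decay transcript, which adds 38 bases (chr13:80891450-80891487). The junctions are shown, with 20 bases on each side and the added stretch in capitals, because the 2 transcripts went opposite ways at DIV7.
Arrdc3 coding transcript: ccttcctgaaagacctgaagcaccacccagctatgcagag
Arrdc3 decay transcript: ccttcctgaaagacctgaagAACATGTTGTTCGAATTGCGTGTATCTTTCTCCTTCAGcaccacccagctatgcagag
At DIV7 the coding transcript measured 31.9 and 39.7 TPM at rest and 4.78 and 3.62 TPM with KCl. The decay transcript measured 4.86 and 4.02 TPM at rest and 6.81 and 6.97 TPM with KCl, so it was higher in both KCl libraries. Its share of the gene's counts was 12.8% and 8.86% at rest and 56.4% and 62.1% with KCl. With protein-coding transcripts alone, the DIV7 log2 fold change of Arrdc3 was -3.02 in place of -1.80. The transcripts also differ by 7 bases at their 3′ ends, and reads outside these stretches do not separate them. Over the 20 DIV18 libraries the share of the decay transcript ran from 0% to 23.9%, with a median of 8.70%.

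The retained-intron transcripts of Arrdc3 (3 in the annotation, summed) separated the states at DIV18. They measured 9.95 to 14.8 CPM in the 10 resting libraries, with a median of 12.1, and 4.82 to 7.37 CPM in the 10 KCl libraries, with a median of 5.76. Every KCl library was below every resting one, in all constructs. The protein-coding transcripts of the gene overlapped between the states at DIV18, at 56.4 to 74.8 CPM at rest and 41.2 to 65.4 CPM with KCl. At DIV7 the retained-intron transcripts of Arrdc3 measured 2.28 to 4.56 CPM at rest and 0.69 to 1.22 CPM with KCl, also with no overlap. Those of Arrdc2 and Txnip did not overlap at DIV7 either, while those of Arrdc1 did. The Arrdc3 retained-intron transcripts were singled out after their values were seen, so no test is given. How many other transcripts or genes separate in this way was not counted. Retained-intron transcripts of Arrdc1, Arrdc2 and Txnip overlapped between the states at DIV18.

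A similar separation held for 1700023H06Rik, a short noncoding gene on the opposite strand that lies inside the first intron of Arrdc3 (chr13:80884224-80885524 in the intron 80883930-80887405). It was also singled out after its values were seen, so its p values, though adjusted over all genes, are a description. Its libraries measured 3.07 to 6.17 CPM at rest and 0.0534 to 1.45 CPM with KCl at DIV18, again with no overlap over 10 and 10 libraries. The mean response was -2.77 (SE 0.29; edgeR adjusted p = 4.44e-05), where 0.449% of all genes passed. Over 23 alternatives fitted on the same libraries the value ran from -3.51 to -2.51. Within NT, KO+vector and KO+WT alone its log2 fold changes were -3.74, -2.26 and -2.31, with edgeR adjusted p of 0.0519, 0.0724 and 0.0913. In the poly(A) libraries of DIV7 it had 3 to 9 counts. No source used here gives the strand setting of the counting, so reads of this gene and of the unspliced Arrdc3 intron cannot be told apart.

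**Figure D3:**
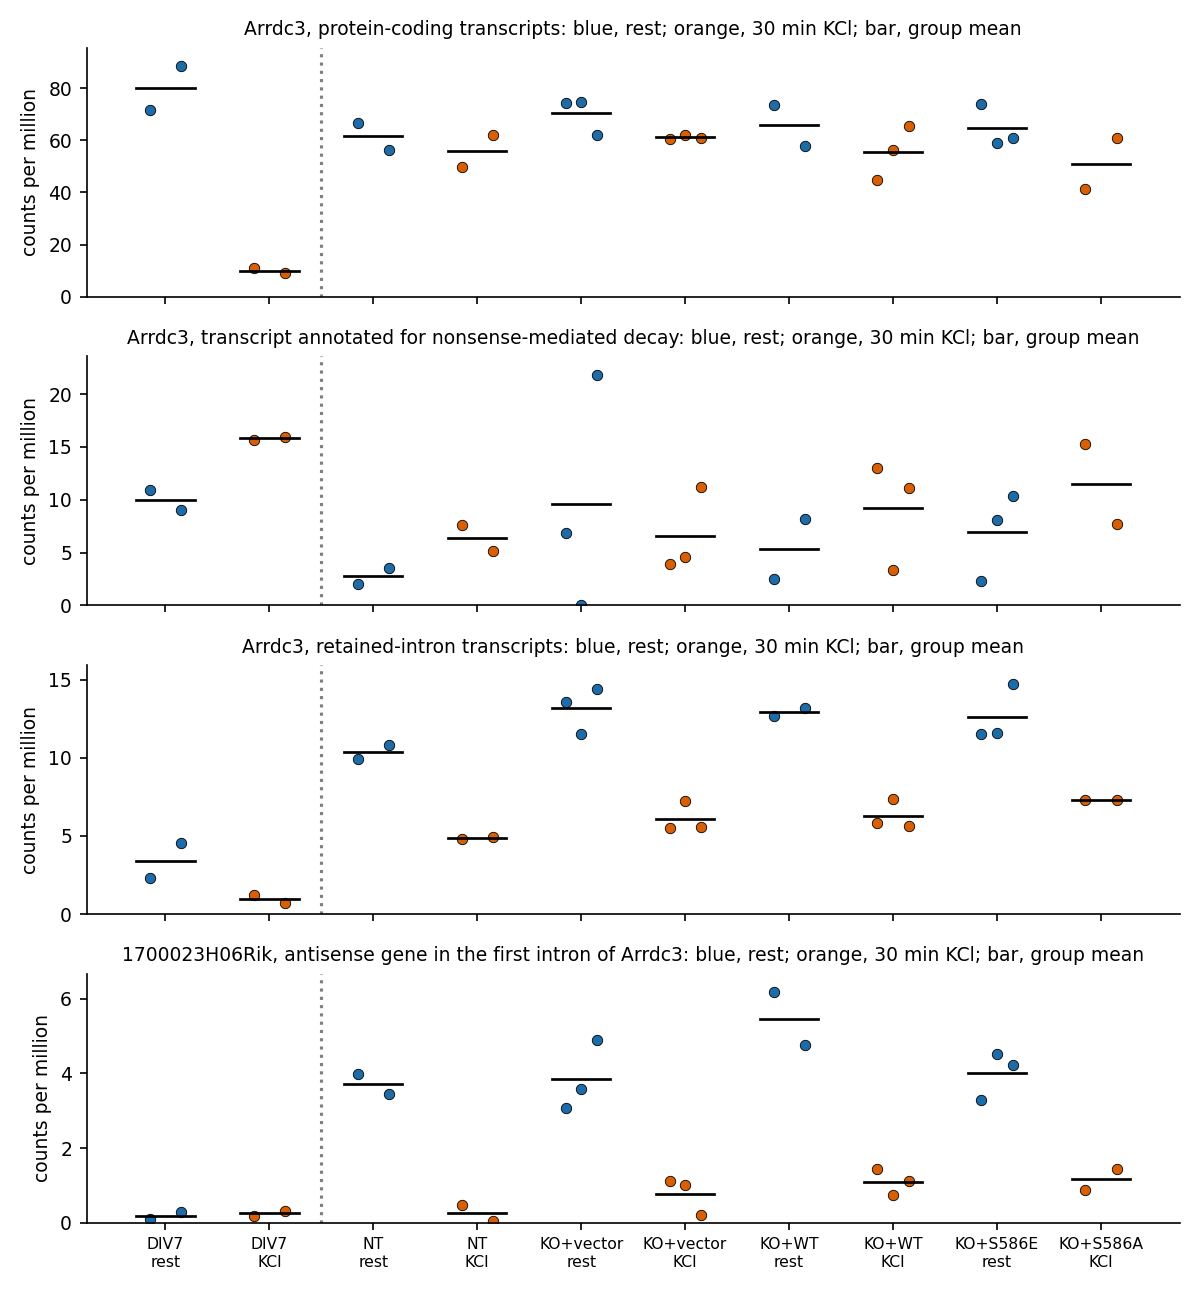
Levels in CPM (vertical axes) in each library by group for the protein-coding, nonsense-mediated-decay and retained-intron transcripts of Arrdc3 and for 1700023H06Rik, which lies antisense in its first intron, with blue points at rest, orange points after KCl and bars at group means. In the lower 2 panels all 10 DIV18 KCl libraries lie below all 10 resting ones.

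The other genes overlapping a member by position were low. Gm15441, which spans Txnip on the opposite strand, had 0 to 9 counts in any library. Psmc3ip, whose end overlaps that of Mlx, measured 0.742 to 3.63 CPM. The 4 genes overlapping Mlxip reached at most 1.75 CPM.

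At rest, Txnip was lower in KO+vector than in NT. The values were 126 and 156 CPM in NT and 72.2, 97.0 and 79.1 CPM in KO+vector, with no overlap. The log2 fold change was -0.77 (SE 0.18; edgeR adjusted p = 0.0174), a 1.70-fold lower level. The call rested on single libraries: without NT rest replicate 2 the change was -0.61 (adjusted p = 0.307), and without KO+vector rest replicate 1 it was -0.68 (adjusted p = 0.0677). Txnip was the 1 gene of the 7 that passed, where 5.90% of 20940 genes did. Arrdc1 had a log2 fold change of -0.54 (adjusted p = 0.119), Arrdc2 one of -0.35 (adjusted p = 0.317), Mlxip one of -0.25 (adjusted p = 0.261) and Arrdc3 one of 0.32 (adjusted p = 0.102), all by edgeR. With length offsets Arrdc1 had -0.27 and Arrdc2 -0.07, and with protein-coding transcripts alone Arrdc1 had -0.91. For 5 of 7 genes the libraries did not overlap, as for 34.4% of all genes.

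Other cell classes differed in the same comparison, where 5.90% of all genes passed by edgeR. Summed astrocyte markers (6 genes) measured 1363 to 1604 CPM in NT and 899 to 1249 CPM in KO+vector at rest, with 1 of 6 lower by edgeR. Dividing-cell markers (4 genes) measured 14.9 to 29.8 and 1.74 to 4.27 CPM, with 3 of 4 lower, and microglial markers (5 genes, 3 tested) 6.84 to 7.77 and 3.8 to 3.82 CPM, with 1 lower. Oligodendrocyte-lineage markers (7 genes) measured 195 to 205 CPM in NT and 133 to 151 CPM in KO+vector. By edgeR 4 of 7 were lower and 0 higher, with at most 1 of the 7 at 0 in a library. The 4 were Sox10, Pdgfra, Cspg4 and Olig1, with log2 fold changes of -9.79, -5.18, -2.65 and -2.40. The median log2 fold change of the 7 was -2.40, a larger difference than the sums show. The part of these cells in the Txnip difference was not tested.

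With wild-type Smarcc2 restored, Txnip at rest measured 123 and 140 CPM, above all 3 KO+vector libraries. The log2 fold change of KO+WT against KO+vector was 0.67 (SE 0.18), with an adjusted p of 0.184 by edgeR and 0.0294 by DESeq2. Arrdc1 had 0.59 (SE 0.20) and Arrdc2 0.57 (SE 0.19), with edgeR adjusted p of 0.268 and 0.254. Without KO+WT rest replicate 2 the Arrdc2 value was 0.17, without replicate 1 it was 0.90, and with length offsets it was 0.32. The Arrdc1 value was 0.34 with length offsets and 1.01 with protein-coding transcripts alone. Summed microglial markers were at 6.03 to 8.92 CPM in KO+WT and 3.8 to 3.82 CPM in KO+vector, with no overlap, and the astrocyte, neuron, oligodendrocyte-lineage, dividing-cell and vessel sums of the 2 groups overlapped. The part of these cells in the Txnip difference was not tested. By edgeR 0 of 7 genes passed (0.0143% of all genes did), with 3 at an unadjusted p under 0.05, and DESeq2 called 1. Over all 20940 genes 2317 had an unadjusted p under 0.05, and DESeq2 called 178. For 3 of 7 genes the groups did not overlap, as for 26.1% of all genes.

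The resting cultures with S586E, a substitution that mimics a phosphorylated serine, had Txnip at 61.2, 106 and 74.9 CPM. All 3 were below both KO+WT libraries, and the log2 fold change against KO+WT was -0.70 (SE 0.18), with an adjusted p of 0.135 by edgeR and 0.0150 by DESeq2. Smarcc2 itself was higher in KO+S586E than in KO+WT by 0.64 on the log2 scale (SE 0.14; edgeR adjusted p = 0.114), with no overlap. The part of the Smarcc2 level in the Txnip difference was not tested. Arrdc2 measured 9.78, 9.80 and 10.2 CPM in KO+S586E and 12.2 and 20.3 CPM in KO+WT, a log2 fold change of -0.71 (SE 0.19; adjusted p 0.141 by edgeR and 0.0313 by DESeq2). Without KO+WT rest replicate 2 the Arrdc2 value was -0.30. Summed astrocyte markers were at 1153 to 1281 CPM in KO+S586E and 881 to 1074 CPM in KO+WT, neuron markers (5 genes) at 2840 to 3345 and 2613 to 2785 CPM, oligodendrocyte-lineage markers at 140 to 162 and 109 to 135 CPM, and vessel and fibroblast markers (6 genes) at 10.1 to 11.3 and 12 to 12.1 CPM, none overlapping. Microglial and dividing-cell sums overlapped. The part of these cells in the differences was not tested. Arrdc1 had a log2 fold change of -0.56 (SE 0.20; edgeR adjusted p = 0.244). By edgeR 0 of 7 genes and 0% of all genes passed in this comparison, with 3 of 7 at an unadjusted p under 0.05, while DESeq2 called 2 of 7. Over all genes 2696 had an unadjusted p under 0.05, and DESeq2 called 316. The groups did not overlap for 3 of 7 genes, as for 31.3% of all genes. Against KO+vector, Txnip in KO+S586E differed by -0.03 (95% confidence interval -0.38 to 0.31). There edgeR called 0 of 7 genes (0.0191% of all genes), as did DESeq2, with 0 at an unadjusted p under 0.05 (1560 of all 20940 genes).

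**Figure D4:**
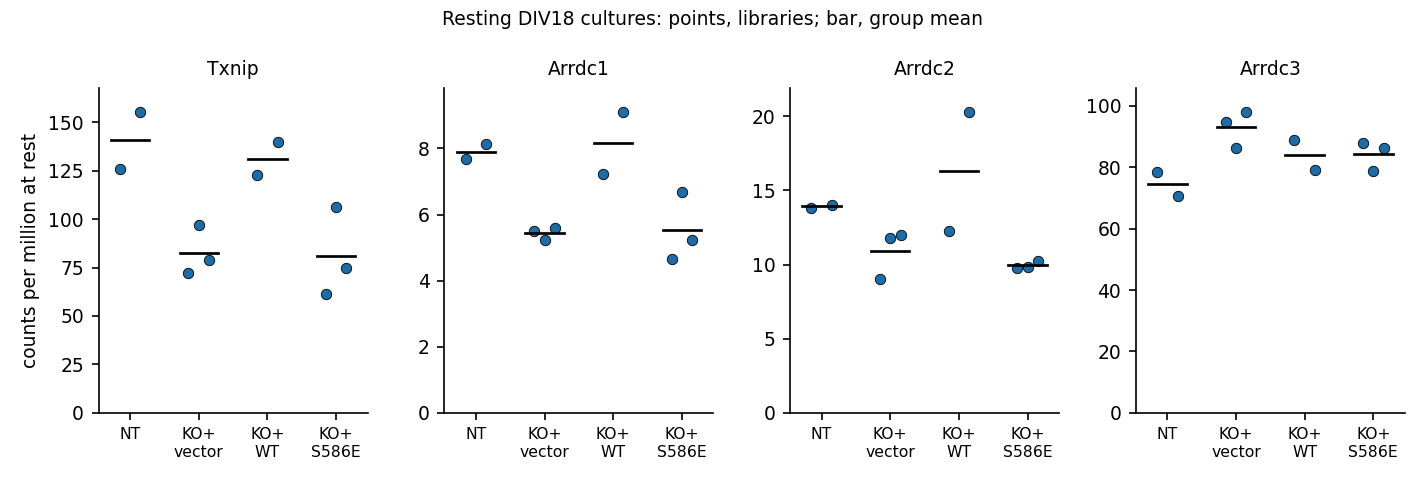
Levels in CPM (vertical axes, from 0) of Txnip, Arrdc1, Arrdc2 and Arrdc3 in the 10 resting DIV18 libraries, by construct, with points for libraries and bars for group means. Txnip lies at 126 and 156 in NT, 72.2 to 97.0 in KO+vector, 123 and 140 in KO+WT and 61.2 to 106 in KO+S586E.

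After KCl the Txnip levels of the constructs differed little. KO+S586A, in which the serine is replaced by alanine, measured 121 CPM in both libraries, within the KO+WT range of 95 to 141 CPM. Smarcc2 was at 1303 to 1340 CPM in KO+S586A and 737 to 1089 CPM in KO+WT with KCl. That was a log2 fold change of 0.54 (SE 0.14; edgeR adjusted p = 0.338). Txnip had log2 fold changes of 0.13 for KO+vector against NT (SE 0.18) and 0.04 for KO+WT against KO+vector (SE 0.16). They were 0.05 for KO+S586A against KO+WT (95% confidence interval -0.33 to 0.43) and 0.09 for KO+S586A against KO+vector (95% confidence interval -0.29 to 0.47). By edgeR 0 of 7 genes passed in these comparisons, where 2.67%, 0.00955%, 0% and 0.00955% of all genes did (1823 genes at an unadjusted p under 0.05 and 19 by DESeq2 where edgeR called 0). The numbers of the 7 at an unadjusted p under 0.05 were 1, 0, 1 and 1, and DESeq2 called 0 of 7 in each. Of all 20940 genes 3466, 837, 1823 and 2730 had such an unadjusted p. The lowest of those p values for a member belonged to Mlxip, at -0.38 in KO+S586A against KO+vector (SE 0.13; edgeR adjusted p = 0.226). Mlxip was at 19.9 and 22.3 CPM in KO+S586A and at 24.7 to 31.0 CPM in KO+vector with KCl. In the same order of comparisons, the groups did not overlap for 3, 1, 2 and 5 of 7 genes. Of all genes 35.8%, 10.1%, 25.7% and 32% did not overlap. With KCl, astrocyte sums were at 1274 to 1762 CPM in NT and 738 to 866 CPM in KO+vector, with no overlap. Neuron (2846 to 3113 and 2429 to 2553 CPM) and microglial sums (7.87 to 8.59 and 5.07 to 6.05 CPM) did not overlap either. The same held for dividing-cell (3.32 to 20.3 and 2.25 to 2.36 CPM) and vessel sums (11.9 to 15.9 and 10.9 to 11.3 CPM), while oligodendrocyte-lineage sums overlapped. The part of these cells in the member values was not tested.

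Ordered by mean, the DIV18 groups ran from NT at rest with 141 ± 21 CPM of Txnip (SD, n = 2), through KO+WT at rest with 131 ± 12.1 (n = 2), KO+S586A with KCl with 121 ± 0.281 (n = 2), KO+WT with KCl with 117 ± 23.2 (n = 3), KO+vector with KCl with 113 ± 3.55 (n = 3) and NT with KCl with 104 ± 9.75 (n = 2), to KO+vector at rest with 82.7 ± 12.8 (n = 3) and KO+S586E at rest with 80.8 ± 23.0 (n = 3). Neighbours in that order overlapped in their libraries, except KO+WT at rest and KO+S586A with KCl, whose nearest libraries were 123 and 121 CPM.

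Over the 20 DIV18 libraries the arrestin genes differed in how they followed Txnip, as log2(CPM + 1). Pearson's r with Txnip was 0.83 for Arrdc1, 0.72 for Arrdc2, 0.62 for Arrdc4, 0.04 for Mlxip, -0.46 for Mlx and -0.64 for Arrdc3. After group means were removed, r was 0.61 for Arrdc1, 0.40 for Arrdc2, 0.74 for Arrdc4, 0.12 for Mlxip, -0.60 for Mlx and -0.74 for Arrdc3. The libraries share depth, group and preparation, so these are descriptions. The 5 genes most like Txnip among 11236 genes of at least 5 CPM were Ass1 (r = 0.93), which encodes argininosuccinate synthase, Pltp (0.93), which encodes phospholipid transfer protein, Tmem106c (0.91), Hsf4 (0.91) and Gfer (0.90). The 5 most opposite were Fam13b (-0.91), Atp2b1 (-0.90), a plasma membrane calcium pump gene, Jmjd4 (-0.90), Fat3 (-0.90) and Fgd4 (-0.89). The slope of each library's counts with gene GC content correlated with Txnip at r = 0.38. Of the summed markers, the neuron sum had r = -0.49 with Txnip, microglia 0.43, vessel and fibroblast 0.32, dividing cells 0.26, astrocytes -0.23 and the oligodendrocyte lineage -0.15.

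**Figure D5:**
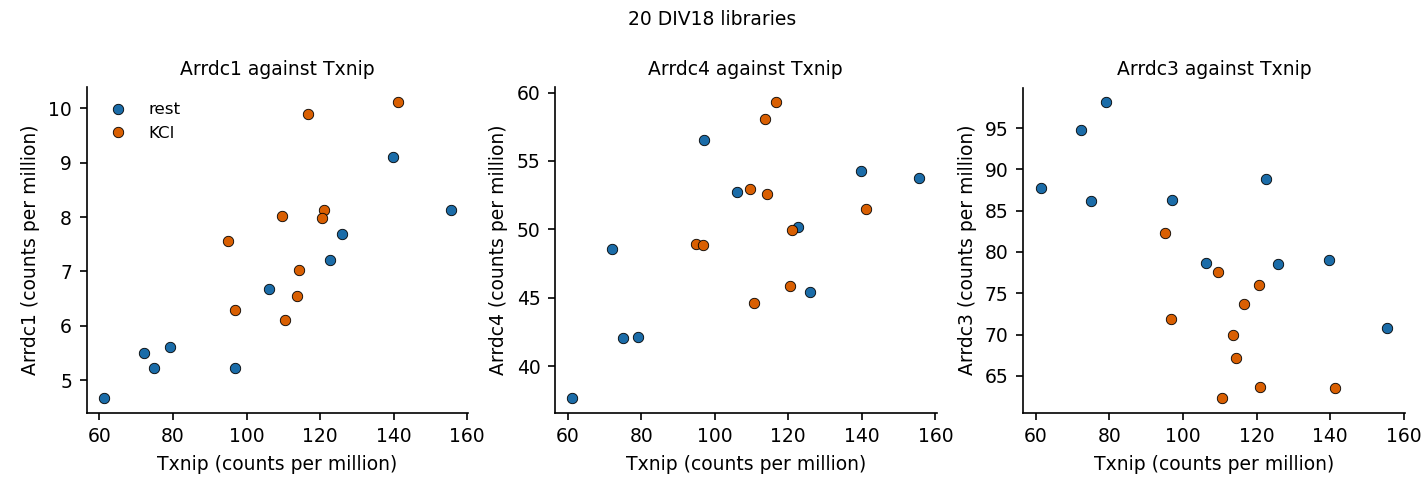
Arrdc1, Arrdc4 and Arrdc3 (vertical axes) against Txnip (horizontal axes), in CPM, in the 20 DIV18 libraries, with blue points at rest and orange points after KCl. Arrdc1 follows Txnip (r = 0.83 on the log2 scale) and Arrdc3 runs the other way (r = -0.64).

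The wider pathway was counted on lists chosen with earlier results of these data known. The p values of list genes, though adjusted over all genes, are therefore a description and no independent test. At DIV7, where 17.0% of genes passed, 4 of 11 other genes of the Myc, Max and Mlx network fell and 0 rose. Mycn fell by 2.05 (SE 0.07; edgeR adjusted p = 9.07e-06) and Myc by 1.28 (SE 0.09; adjusted p = 3.86e-04) on the log2 scale. Both are Max partners that drive growth genes, and both passed under every alternative tried. Mga and Mxd4, Max partners that repress, fell by 0.31 and 0.26. Both calls were lost without DIV7 KCl replicate 1 (edgeR adjusted p = 0.0502 and 0.108), that of Mga also without rest replicate 1 (0.0773) and that of Mxd4 without rest replicate 2 (0.130). With protein-coding transcripts alone Mxd4 had -0.09. The list's median was -0.14.

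Of 6 genes for glucose entry at DIV7, Slc2a3, the neuronal glucose transporter gene, rose by 0.44 (SE 0.07; edgeR adjusted p = 0.00722), and Slc2a8, an intracellular glucose transporter gene, fell by 0.90 (SE 0.12; adjusted p = 0.00410). With protein-coding transcripts alone Slc2a8 had -0.31 (adjusted p = 0.310). Of 9 Nedd4-family ligases, Hecw2 rose by 0.39 and Itch, whose product is known to ubiquitinate Txnip, by 0.32. Both calls were lost without DIV7 rest replicate 2 (edgeR adjusted p = 0.0544 and 0.0972), and that of Itch also without rest replicate 1 or KCl replicate 2 (0.0501 and 0.0556). With length offsets the Hecw2 value was 0.49 and did not pass (0.122). Of 10 genes on the thioredoxin-system list 1 passed by edgeR and 0 by DESeq2. The 1 was Nlrp3, an inflammasome sensor that Txnip is reported to bind and not itself part of that system. It rose by 2.17 (SE 0.40; edgeR adjusted p = 0.0126; 0.0672 by DESeq2), and the call was lost without rest replicate 1 or KCl replicate 1 (0.0827 and 0.0633). Of 8 arrestin relatives 7 were tested and 0 passed by edgeR, with 1 at an unadjusted p under 0.05 and 0 by DESeq2. Over all 19822 genes 6258 had such an unadjusted p. In the 5 lists together, 4 of 43 tested genes rose and 5 fell by edgeR, where 17.0% of all genes passed. The share in the lists is near that over all genes.

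At DIV18, 0 of the 43 tested genes of these 5 lists passed for a KCl response by edgeR in NT, KO+vector or KO+WT. Of all genes 0.00955%, 0.0716% and 0.0430% passed, so 0 of 43 is close to the share over all genes. Of these 43 genes, 2, 5 and 1 had an unadjusted p under 0.05, and DESeq2 called 0, 1 and 0. Of all 20940 genes 906, 2167 and 1040 had such an unadjusted p. At rest in KO+vector against NT, 2 of the 43 genes rose and 1 fell by edgeR, where 5.90% of all genes passed. Mycl rose by 1.14 (SE 0.17; edgeR adjusted p = 0.00114), and it passed under every alternative tried. Slc2a1, the glucose transporter gene of glia and vessels, fell by 1.3 (SE 0.24; adjusted p = 0.00471), with -0.78 (adjusted p = 0.235) without NT rest replicate 2. The beta-arrestin gene Arrb2 rose by 0.31 (adjusted p = 0.0304), and this call held in 7 of 15 alternatives. It was lost without either NT replicate or KO+vector replicate 1 or 3, without the low-count filter (adjusted p = 0.180), with length offsets (0.275), with the compared groups fitted alone (0.139) and with the replicate block within KO+vector (0.0950). With KCl in both groups, 1 of the 43 genes rose and 3 fell by edgeR, where 2.67% of all genes passed. Mycl rose by 0.87 (edgeR adjusted p = 0.0133). Hk1 (a hexokinase gene), Mnt (a Max partner that represses) and Nedd4l (a ligase gene) fell by 0.35, 0.38 and 0.43. Their edgeR adjusted p values were 0.0330, 0.0225 and 0.0387. All 4 of these were lost without NT KCl replicate 2 (adjusted p of 0.303, 0.450, 0.314 and 0.462). The call of Mycl was also lost without KO+vector KCl replicate 2 (0.0516), those of Hk1 and Nedd4l without any 1 of the 5 libraries, and that of Mnt without any but KO+vector KCl replicate 3. With the replicate block within KO+vector the calls of Hk1, Mnt and Nedd4l were lost too (0.138, 0.0607 and 0.256). Astrocyte, neuron, microglial, dividing-cell and vessel sums also separated NT from KO+vector with KCl, and their part in these calls was not tested.

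The most negative log2 fold changes among other genes of at least 5 CPM at DIV7 were those of Gm16185 (-4.53), Gm42664 (-3.22), Spaca6 (-2.88), Srrm4os (-2.83) and Gm38102 (-2.77). Txnip stood between the first 2 of these. In NT at DIV18 the same 5 genes had values of -0.51, -0.27, -0.10, -0.52 and -0.56.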

How the data were processed

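RNA-seq of 24 libraries was deposited as one transcript table per library. Per the file headers these hold estimated counts, TPM, and transcript and effective lengths (other units), made by the authors with kallisto, after FastQC and cutadapt, per the submitters' processing notes. The build and annotation they used are not given in the sources used here. Of 142552 transcripts, 141429 matched GENCODE M21 (GRCm38), and the 1123 others held at most 0.467% of a library's counts.

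Estimated counts were summed per gene, rounded and tested with edgeR 4.0.16 (R 4.3.3): TMM, filterByExpr, quasi-likelihood F tests, two-sided, Benjamini-Hochberg over all genes tested (19822 at DIV7, 20940 at DIV18). DIV7 was fitted alone, and the 20 DIV18 libraries in 8 groups. DESeq2 1.42.0 was an alternative, among others of scaling, filter, block, length, GC content, transcripts and left-out libraries. Biological variation between libraries, as edgeR's common estimate, came to 6.44% (DIV7) and 14.6% (DIV18), with 2 and 12 residual degrees of freedom. The script was tested on simulated data.

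The members and lists were chosen with earlier results of these data known. Named genes are the 7 members, list genes that passed, label checks, the 5 genes at each end of the correlation with Txnip, and the 5 lowest DIV7 fold changes. Same-numbered KO+vector libraries deviated together (correlations 0.13, 0.24 and 0.41 over genes, a pairing read from the data, not from the labels), although rest replicate 1 correlated more with KCl replicate 2 (0.31). Promoter windows came from RefSeq, where all 7 genes matched, in 9 windows.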

Additional observations from a re-analysis of the deposited data

Results flagged for a closer look

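In the data, 3 genes had KCl libraries that were all below rest at DIV7 and all above rest in KO+vector at DIV18. The DIV18 KO+vector log2 fold change minus that of DIV7 was 4.94 for Txnip, 0.86 for Arrdc1 and 1.03 for Arrdc2. These differences were not tested, and the cultures differ in age, RNA selection, DMSO and guide RNA. No group held 4 or more libraries, so none was examined for single libraries that stand apart.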

How the results depend on the processing

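Of 1673 member values under an alternative, over 15 comparisons, 1581 kept the sign of the reported value and 92 did not, none of them a called one. Leaving out the low-count filter called 1 of 7 genes for KCl in NT, 3 in KO+vector and 1 for the mean response, 2 at rest for KO+WT against KO+vector and 2 for KO+S586E against KO+WT, and 1 for each difference of responses. DESeq2 called 1 and 2 at rest for KO+WT against KO+vector and KO+S586E against KO+WT. For the mean response the replicate block and the length offsets each called 1 (Arrdc3). Leaving out libraries gave 0 to 1 for the mean response and 0 to 1 for KO+vector against NT at rest. NT numbers deviated in opposite ways (correlation -0.24): the replicate block with those numbers crossed, chosen after seeing the data, called 1 for the mean response. In KO+vector the replicate block changed no member call.

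Counts over all genes moved by more than 1.5 times: 1459 to 5854 around 3371 at DIV7, 100 to 2016 around 1236 for KO+vector against NT at rest, 37 to 1438 around 560 with KCl, and 28 to 442 around 94 for the mean response. Counts of 0 to 15 in the other 11 comparisons rose to between 116 and 782 without the low-count filter. The cause of these shifts was not tested. At DIV7, GC offsets moved Arrdc1 to -0.18 and Mlxip to -0.08. Groups of 2 or 3 cultures limit the precision of every difference.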
